A study of Mus musculus with 16 samples.

Results

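Solute carriers are membrane proteins that move nutrients, ions, vitamins and metals across the plasma membrane and the membranes of organelles. Of 309 mouse genes with a symbol of the SLC pattern and a probe set carrying that symbol alone, 103 were kept here as expressed in hepatic stellate cells. A gene was kept when its probe set with the highest mean reached a log2 expression value of 5 on at least 2 of 16 arrays. Another 203 genes stayed below that level, and Slc2a1, Slc16a1 and Slc16a3, which reached it, were left out by name, as was Slc7a11, which did not. Just inside the limit, the second-highest array read 5.01 for Slc29a3, 5.03 for Slc2a10 and 5.08 for Slc25a14. Just outside it, that array read 4.92 for Slc47a1, 4.9 for Slc39a8 and 4.89 for Slc37a4. The level on the arrays chose these genes, so their being expressed is not a result.

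Hepatic stellate cells are the vitamin A-storing pericytes of the liver, which turn into matrix-producing myofibroblasts after injury. All cells came from male Balb/c mice 8 to 10 weeks old and were passed over magnetic columns to remove macrophages by their surface antigen F4/80. Coculture cells (2 arrays, replicates 2 and 3) were grown for 5 days in 10% serum on plastic with hepatic macrophages in a transwell, which lets soluble factors pass but no cells touch. The series gives that group 3 samples, and 1 was not analysed here. Culture cells (3 arrays) were grown for 5 days in the same serum on plastic with no macrophages. Bile duct ligation cells (3 arrays) came from mice 15 days after ligation, a cholestatic injury, and were plated for 24 h. CCl4 cells (3 arrays) came from mice given 4 intraperitoneal injections of carbon tetrachloride, a hepatocyte toxin, at 0.5 µl per g, and were plated for 24 h. Quiescent cells (5 arrays) came from normal mice and were plated for 24 h. Separate animals are not stated for the arrays of a group, and p-values therefore reflect the spread among these samples, part of which may be technical. The 4 comparisons with quiescent cells share the same 5 quiescent arrays.

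Transport by this family takes several forms. Some carriers couple the entry of a solute to the sodium gradient that the sodium pump maintains, others exchange one solute for another, and a further kind lets solutes move down their own gradient. SLC25 proteins sit mainly in the inner mitochondrial membrane, SLC39 proteins bring zinc and some other metals into the cytosol, and SLC30 proteins move zinc out of it. Stellate cells lose their retinoid droplets, divide and secrete collagen as they activate, which draws on amino acid supply.

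Values are normalised log2 array signals, in which a difference of 1 is a 2-fold difference. The background step of the normalisation sets unexpressed probe sets near log2 2 (array medians 2 to 2.06), and a fold computed from a level that low rests on the background estimate. Between 6803 and 7037 genes reached log2 5 on an array, and arrays of 1 group correlated at 0.929 to 0.983 over the tested genes. Of 13 stellate markers, a list that also holds activation genes, 12 or 13 averaged at least 5 in every group. Markers of stellate identity still differed: Reln averaged 8.78 in coculture, 11.24 in culture, 10.90 after ligation and 10.63 after CCl4, against 12.03 in quiescent cells, and fell in coculture and after both injuries. Lhx2 and Pdgfrb fell in coculture (-0.93 and -0.66) and after CCl4 (-1.35 and -1.01). Lrat averaged 7.98 in coculture, 9.75 in culture, 4.78 after ligation and 3.81 after CCl4, against 5.61 in quiescent cells, and rose in culture. Of 16 macrophage markers, 2 averaged at least 5 in coculture, 0 in culture, 2 after ligation, 2 after CCl4 and 1 in quiescent cells. The summed level of that list on the log2 scale was 8.38 to 8.43 in coculture, 6.52 to 6.70 in culture, 7.15 to 8.91 after ligation, 7.55 to 8.58 after CCl4 and 6.89 to 8.10 in quiescent cells, and Adgre1, which encodes F4/80, lay at or below 2.56 on every array. Hepatocyte markers summed to 7.97 to 9.42 after ligation and 8.74 to 11.56 after CCl4, against 5.40 to 6.02 in quiescent cells. Markers of cholangiocytes summed to 7.70 to 8.70 after ligation and 8.55 to 10.79 after CCl4, against 4.71 to 5.14 in quiescent cells, carried by Krt8 and Krt18 while Krt19 stayed at or below 3.01 on the injury arrays. In coculture the cholangiocyte list summed to 6.27 and 6.3, against 4.80 to 5.16 in culture, and Krt19 read 5.56 and 5.64 in coculture, against 1.88 to 2.58 in culture and 1.11 to 1.93 in quiescent cells. Krt19 reached the level of 5 in coculture alone, so its differences are given as sizes with no test. They were 4.02 against quiescent and 3.27 against culture. The macrophage list's tested members were Cd68 and Lyz2, and they did not move together: in culture against quiescent Cd68 fell by 3.28 and Lyz2 rose 2.93. Lyz2 averaged 5.49 in coculture, 4.94 in culture, 5.91 after ligation and 5.46 after CCl4, against 2.02 in quiescent cells. No quiescent array reached 5 for Lyz2, so these differences from quiescent are given as sizes with no test. Mesothelial markers summed to 5.14 to 6.23 after ligation and 6.01 to 8.85 after CCl4, against 4.04 to 4.40 in quiescent cells. CCl4 replicate 3 was the highest array in these 3 lists. The part of these markers in the results below was not tested. In such mixed material, fewer cells of a type and less RNA per cell cannot be told apart.

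Solute carrier genes changed in every state compared with quiescent cells, in both directions, and in most comparisons about as often as other genes. A gene was called when its adjusted p in a linear model over all tested genes was under 0.05. In culture 51 of the 103 differed from quiescent cells, 22 higher and 29 lower, where 42.1% of all 7823 tested genes did (18.5% higher and 23.5% lower). In coculture 39 differed, 18 higher and 21 lower, against a background of 38.7% (17.8% higher and 20.9% lower). After bile duct ligation 19 differed, 10 higher and 9 lower, against 16.9% (8.03% and 8.83%). After CCl4 28 differed, 10 higher and 18 lower, against 22.0% (9.51% and 12.5%). Cocultured cells differed from cultured cells in 24 genes, 11 higher and 13 lower, where 15.4% of all genes did (8.37% and 7.03%). Culture differed from the mean of both injuries in 52, 27 higher and 25 lower, against 50.9% (25.0% and 25.9%). The median size of the log2 difference was 0.54 among the carriers and 0.44 among all tested genes in culture against quiescent, and 0.32 and 0.27 after ligation. The filter favours a difference in a gene that passed the level only where it is high. Of such genes, 4 reached 5 in culture alone (Slc1a6, Slc24a3, Slc2a13 and Slc9a9), and Slc25a14, called in no comparison, in coculture alone. Slc1a5 and Slc4a4 reached it on injury arrays alone, Slc2a10 on 1 coculture and 1 ligation array, and Slc9a8 on 1 ligation and 1 quiescent array. Slc15a3 and Slc41a2 reached it on no quiescent array. Among the 74 genes at 5 or more on all 16 arrays, 32 differed in culture and 27 in coculture, 10 after ligation and 18 after CCl4, all against quiescent cells, and 13 in coculture against culture. The share called among all genes at that level on all 16 arrays was not computed, so these counts have no background beside them.

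**Figure D1:**
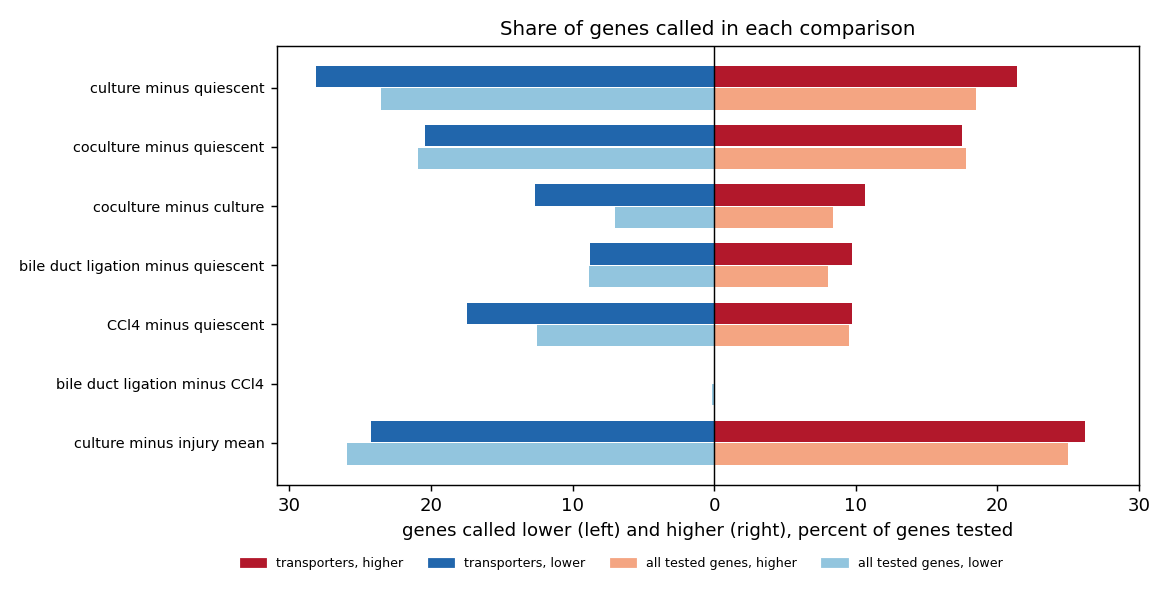
Percent of genes called lower (left of 0) or higher (right of 0) in each comparison, dark bars for the 103 solute carrier genes and light bars for all 7823 tested genes. The dark and light bars lie near each other in most comparisons, and bile duct ligation against CCl4 has 0 carriers called.

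No carrier was called between the injuries. Bile duct ligation and CCl4 differed in 0 of 103 genes by limma, where 0.166% of all genes differed (0.0256% higher and 0.141% lower after ligation), and 10 carriers had an unadjusted p under 0.05. The smallest of those p-values belonged to Slc25a39, a carrier needed for mitochondrial glutathione uptake, at a log2 difference of 0.49 ± 0.12 (SE) and adjusted p = 0.0983. With arrays weighted by quality, Slc25a39 (0.46) and Slc16a9 (1.28) passed. The injuries shared 6 genes above quiescent (Slc15a3, Slc1a5, Slc20a2, Slc41a2, Slc4a4 and Slc7a6) and 8 below it (Slc23a2, Slc25a36, Slc29a1, Slc35a1, Slc43a3, Slc46a1, Slc49a4 and Slc9a9), beside 5.87% and 5.71% of all tested genes called higher and lower in both. Of these, Slc1a5 and Slc4a4 reached the level of 5 on injury arrays alone, and Slc15a3 and Slc41a2 on no quiescent array. Slc9a9 reached it on no injury or quiescent array. The calls of Slc25a36 and Slc35a1 depend on the probe set. Because both were set against the same quiescent arrays, these shared counts are a description.

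**Figure D2:**
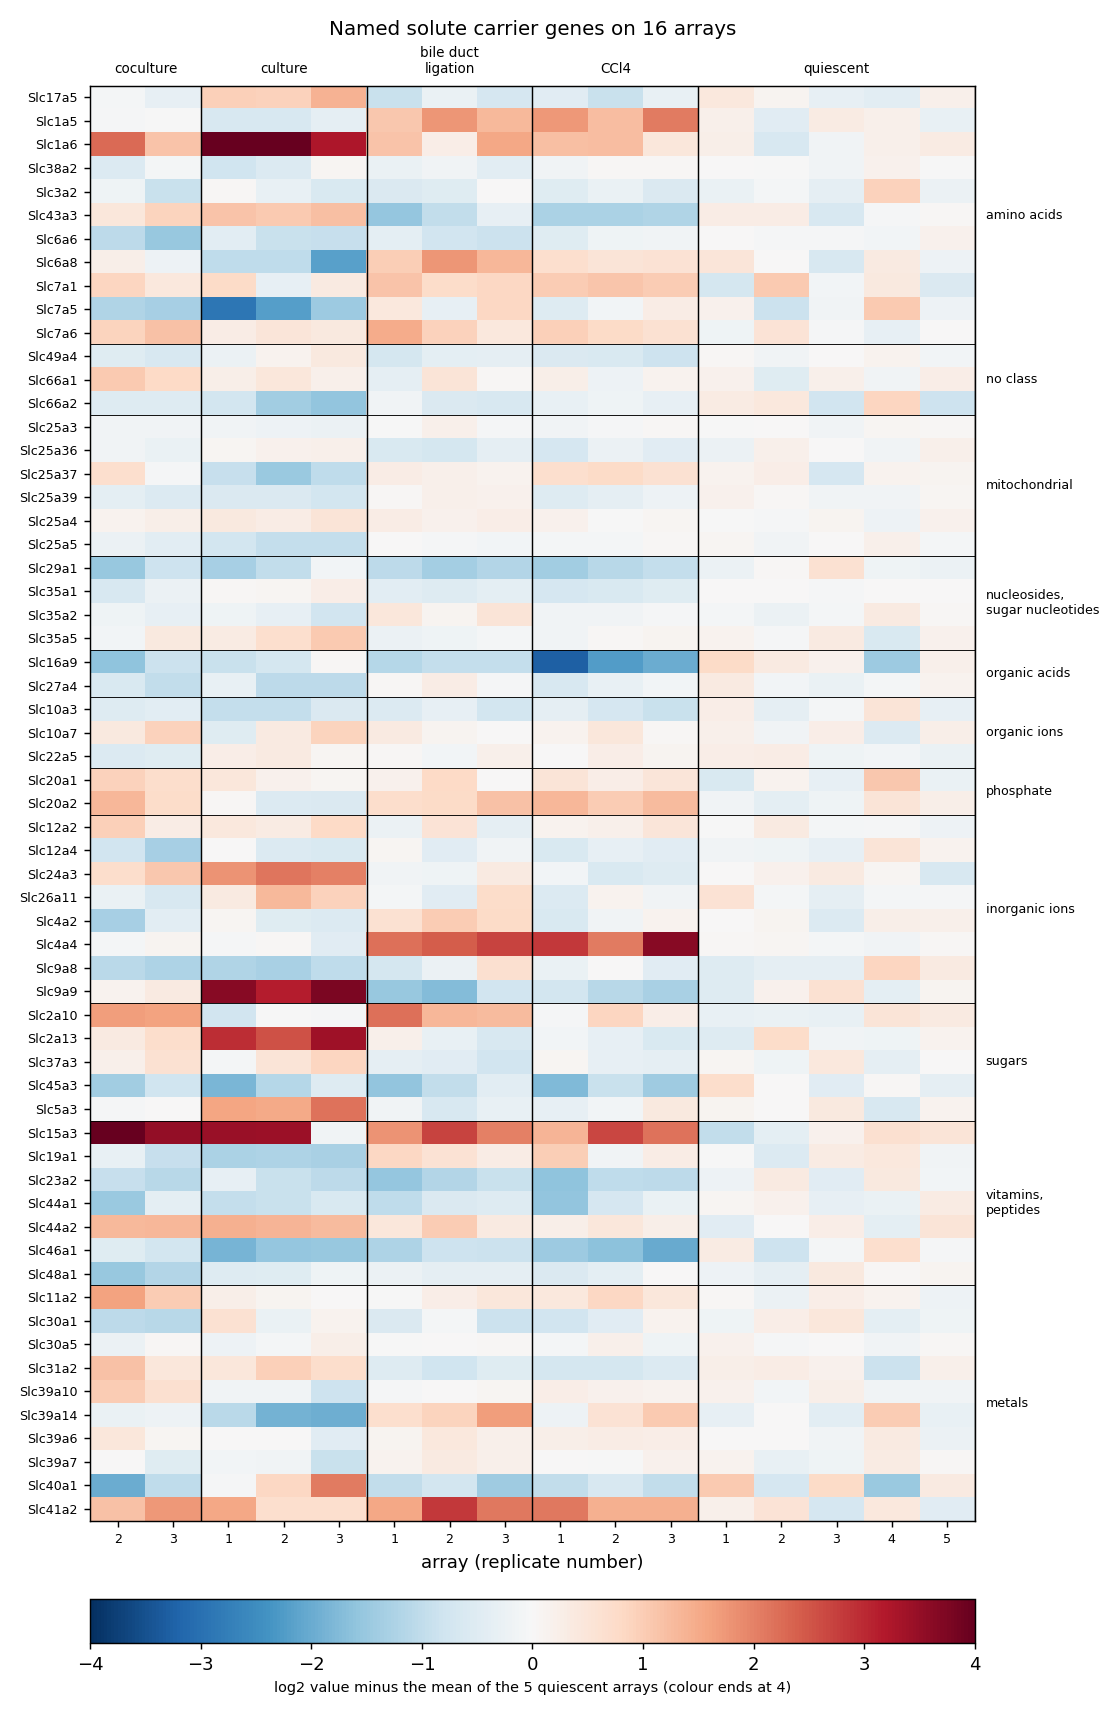
Log2 value minus the mean of the 5 quiescent arrays for the 61 solute carrier genes named by rule or in the text, one column per array, grouped by transport class. Slc9a9, Slc1a6, Slc2a13 and Slc24a3 stand out on the 3 culture arrays, Slc4a4 on the 6 injury arrays and Slc15a3 on all but 1 of the arrays outside the quiescent group.

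The sodium-coupled myo-inositol carrier Slc5a3 was higher in culture than in coculture or quiescent cells. Slc9a9, a sodium/proton exchanger of recycling endosomes, Slc2a13, a proton-coupled myo-inositol carrier, Slc1a6 and Slc24a3 reached the level of 5 in culture alone, so their culture differences are given as sizes with no test. Slc9a9 read 3.56 and 3.79 in coculture and 7.07, 6.56 and 7.18 in culture, against 1.92, 1.71 and 2.65 after ligation, 2.7, 2.32 and 2.12 after CCl4 and 2.91, 3.61, 4.04, 3.05 and 3.54 in quiescent cells. Every culture array lay above every other array. The log2 difference of Slc9a9 was 3.51 ± 0.31 (SE) in culture against quiescent (11.4-fold) and -3.26 ± 0.39 in coculture against culture. It fell by 1.34 after ligation (adjusted p = 0.00749) and by 1.05 after CCl4 (0.0245), and that last call was lost without quiescent replicate 3 (-0.90), CCl4 replicate 2 (-1.02) or CCl4 replicate 3 (-0.92). Both injury calls were also lost with the level set at 7. All injury and quiescent arrays of Slc9a9 read below 5, and the injury arrays lay near the level of unexpressed probe sets. The size of both falls thus rests on the background estimate. The Slc9a9 difference from quiescent had opposite signs in culture and after both injuries, and culture exceeded the injury mean by 4.70 ± 0.30.

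Slc2a13 read 2.62 and 2.96 in coculture and 5.21, 4.81 and 5.65 in culture, against 1.60 to 2.46 on the 6 injury arrays and 1.73, 2.98, 2.10, 2.09 and 2.38 in quiescent cells. The culture arrays again stood above all others, and the rest read near the level of unexpressed probe sets. Its log2 difference was 2.97 ± 0.34 in culture against quiescent (7.83-fold) and -2.43 ± 0.42 in coculture against culture. Slc5a3 read 7.20 and 7.26 in coculture and 8.85, 8.77 and 9.43 in culture, against 7.12, 6.61 and 6.95 after ligation, 6.93, 7.16 and 7.65 after CCl4 and 7.38, 7.27, 7.65, 6.62 and 7.39 in quiescent cells. Here all 16 arrays carried signal, and culture alone stood apart. Slc5a3 rose 1.76 ± 0.23 in culture (3.38-fold, adjusted p = 3.80e-05) and was lower in coculture than culture (-1.78 ± 0.29, adjusted p = 0.000816). Neither Slc5a3 call was lost under the alternatives run for this gene, including each array left out.

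Slc1a6, a glutamate carrier known from Purkinje neurons, read 4.59 and 3.48 in coculture and 6.56, 6.43 and 5.56 in culture, against 2.59 to 3.88 on the 6 injury arrays and 2.58, 1.70, 2.19, 2.53 and 2.68 in quiescent cells. The culture arrays were the highest and the quiescent arrays among the lowest. Its log2 difference was 3.84 ± 0.38 in culture against quiescent (14.4-fold) and -2.15 ± 0.47 in coculture against culture. It rose 1.70 ± 0.43 in coculture against quiescent (adjusted p = 0.00662), a call lost without coculture replicate 2 (1.14). Slc24a3, a potassium-dependent sodium/calcium exchanger, averaged 4.23 ± 0.28 in coculture and 5.33 ± 0.17 in culture against 3.34 ± 0.38 in quiescent cells (SD). Its log2 difference was 1.99 ± 0.26 in culture against quiescent and -1.10 ± 0.33 in coculture against culture. Slc17a5, which exports sialic acid from lysosomes, was chosen after its values were seen: it read 5.93 and 5.68 in coculture and 6.97, 6.93 and 7.42 in culture, against 6.43, 6.14, 5.68, 5.59 and 6.23 in quiescent cells. It rose 1.09 ± 0.23 in culture (adjusted p = 0.00149), and its lower level in coculture than culture (-1.30) was not called without coculture replicate 3 (-1.18). In 7 carriers culture was called above quiescent and coculture below culture, a pattern that 3.41% of all tested genes had. They were Slc5a3, Slc17a5, the sulfate carrier Slc26a11 and the 4 genes that reached 5 in culture alone. The filter favours the pattern in those 4, and the 3.41% also counts any such genes. Another 6 were lower in culture than in quiescent cells and higher in coculture than in culture (Slc25a37, Slc25a5, Slc39a11, Slc39a14, Slc46a1 and Slc6a8), as were 3.4% of all tested genes. Of these, the coculture call of Slc46a1 against culture (1.03, adjusted p = 0.0478) was lost with centred arrays (1.0), with the level at 7 or no level, with averaged probe sets (0.85), without shared probe sets (0.67), with only those groups in the fit, and without either coculture array (0.90 and 1.17) or any culture array (0.93 to 1.09). Both comparisons use the culture arrays, so these counts are a description. Slc26a11 averaged 4.05 in coculture and 5.37 in culture against 4.51 in quiescent cells. Its call in culture against quiescent (0.86) was lost without culture replicate 2 (0.63) or 3 (0.84) or quiescent replicate 2, 3, 4 or 5 (0.77 to 0.85), and that in coculture against culture (-1.32) without either coculture array or culture replicate 2 or 3 (-1.09 to -1.51).

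The promoters of the exchanger and the inositol carriers, which were high together, and of the zinc exporter Slc30a1, described with the metals, are shown because Slc5a3 is a known target of the tonicity factor NFAT5 and Slc30a1 of the metal-sensing factor MTF-1. Windows run from 250 bases before to 50 after the start, from RefSeq on GRCm38.p6, and 80 of the 103 genes had a window (104 windows). Capitals mark matches on either strand of TGGAAA, the core of the tonicity element, TGCNCNC, and TGATGNAA, an amino acid response element. TGCNCNC is a looser string than the core of the metal response element, TGCRCNC, where R is A or G.
Slc9a9 (chr9:94669642-94669941, + strand): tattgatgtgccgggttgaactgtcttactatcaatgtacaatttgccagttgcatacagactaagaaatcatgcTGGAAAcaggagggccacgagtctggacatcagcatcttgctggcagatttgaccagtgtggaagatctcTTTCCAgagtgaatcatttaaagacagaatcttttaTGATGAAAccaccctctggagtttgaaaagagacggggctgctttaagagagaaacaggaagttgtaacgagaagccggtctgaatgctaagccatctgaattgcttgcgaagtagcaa
Slc2a13 (chr15:91573212-91573511, - strand): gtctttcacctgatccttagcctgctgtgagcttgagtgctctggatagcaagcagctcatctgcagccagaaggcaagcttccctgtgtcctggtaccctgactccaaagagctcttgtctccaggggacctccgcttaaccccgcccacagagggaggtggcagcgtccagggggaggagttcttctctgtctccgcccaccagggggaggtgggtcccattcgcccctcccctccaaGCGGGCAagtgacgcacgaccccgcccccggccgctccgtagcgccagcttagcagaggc
Slc5a3 (chr16:92058072-92058371, + strand): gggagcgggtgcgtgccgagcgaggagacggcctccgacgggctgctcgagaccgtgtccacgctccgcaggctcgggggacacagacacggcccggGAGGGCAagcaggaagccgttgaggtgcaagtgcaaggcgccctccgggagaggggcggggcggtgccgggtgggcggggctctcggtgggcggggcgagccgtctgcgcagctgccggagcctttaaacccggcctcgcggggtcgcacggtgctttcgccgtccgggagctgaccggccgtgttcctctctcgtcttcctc
Slc30a1 (chr1:191906531-191906830, + strand): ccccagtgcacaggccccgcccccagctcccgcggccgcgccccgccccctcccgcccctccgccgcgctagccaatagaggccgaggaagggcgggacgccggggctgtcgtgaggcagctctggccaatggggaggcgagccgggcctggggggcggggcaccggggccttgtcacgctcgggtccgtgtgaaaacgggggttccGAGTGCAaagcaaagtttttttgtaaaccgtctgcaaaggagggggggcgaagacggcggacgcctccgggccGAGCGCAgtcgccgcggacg
The Slc9a9 window held 2 matches of TGGAAA and 1 of TGATGNAA, those of Slc2a13 and Slc5a3 held 1 of TGCNCNC each, and that of Slc30a1 held 2 of TGCNCNC. The TGCNCNC matches of Slc2a13 and Slc5a3 have C in place of R and are not the metal response element core, while the 2 of Slc30a1 fit it. Short strings match often: TGCNCNC, the looser string, occurred in 51.3% of all 32544 windows and 63.5% of the carriers' windows. TGGAAA occurred in 21.5% and 15.4%, and TGATGNAA in 3.91% and 3.85%. The E-box CACGTG, also searched and absent from the windows shown, occurred in 7.17% of all windows and 17.3% of the carriers' windows. The carriers' windows had a median GC content of 63.7% and all windows 53.0%. A match is a description of the letters in this window and no evidence of binding.

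**Figure D3:**
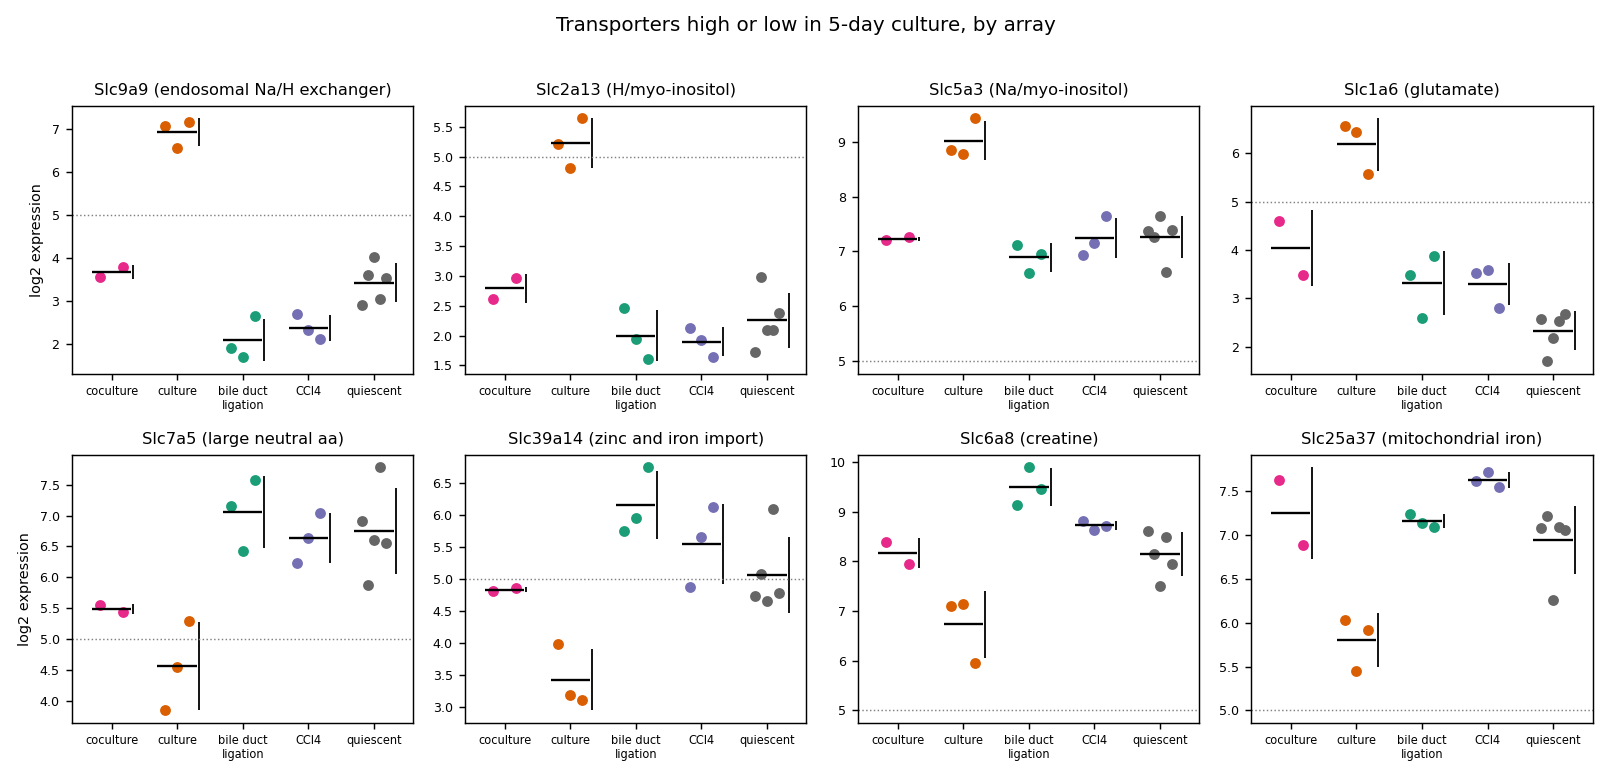
Log2 expression by array for 8 carriers, one point per array, with the group mean (horizontal line) and SD (vertical line) and the level of 5 dotted. The upper row shows carriers whose 3 culture arrays lie above those of the other groups, the lower row carriers whose culture arrays lie below those of quiescent cells.

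Amino acid carriers split in culture, with the large neutral amino acid and creatine carriers low. Of 17 members of the amino acid families 12 differed in culture from quiescent cells, 7 higher and 5 lower, and 6 in coculture, 5 after ligation and 5 after CCl4. Over all tested genes the shares called were 42.1%, 38.7%, 16.9% and 22.0% in these comparisons, and the coculture share of the class, 35.3%, lay near its background. The filter favours the call of Slc1a6, among the 7, and those of Slc1a5 in both injury counts. The 7 also hold Slc38a10, whose direction depends on the probe set, and Slc43a3 and Slc17a5, which belong to these families but carry other solutes. These counts are therefore a description of the families. Slc7a5, the light chain of the large neutral amino acid exchanger, read 5.55 and 5.43 in coculture and 3.85, 4.54 and 5.29 in culture, against 7.16, 6.43 and 7.58 after ligation, 6.23, 6.64 and 7.05 after CCl4 and 6.92, 5.88, 6.60, 7.79 and 6.55 in quiescent cells. The culture and coculture arrays lay below all quiescent arrays, and the injury arrays lay among them. Slc7a5 fell by 2.19 ± 0.39 in culture (4.55-fold lower, adjusted p = 0.000463) and by 1.26 ± 0.45 in coculture (adjusted p = 0.0365), the coculture call being lost without either coculture array (-1.20 to -1.32), quiescent replicate 1 (-1.22) or quiescent replicate 4 (-1.0). Slc3a2, the heavy chain that Slc7a5 and its relatives need at the surface, was called in none of the 7 comparisons, with means of 9.21 in coculture, 9.45 in culture, 9.38 after ligation, 9.29 after CCl4 and 9.74 in quiescent cells.

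Slc1a5, the sodium-dependent glutamine and neutral amino acid carrier, reached the level of 5 on injury arrays alone, so its injury differences are given as sizes with no test. It read 5.68, 6.34 and 5.89 after ligation and 6.31, 5.83 and 6.67 after CCl4, against 4.79, 4.13, 4.92, 4.80 and 4.29 in quiescent cells. No injury array overlapped a quiescent array. The log2 difference from quiescent was 1.38 ± 0.24 after ligation (2.60-fold) and 1.68 ± 0.24 after CCl4 (3.21-fold), and without CCl4 replicate 3, the array richest in hepatocyte markers, it was 1.48. Coculture (4.53 and 4.57) and culture (3.96, 3.95 and 4.23) read no higher than the quiescent arrays, and the log2 difference of culture from the injury mean was -2.07 ± 0.24.

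Slc6a8, which takes up creatine, moved in opposite directions in culture and after ligation. It read 8.38 and 7.95 in coculture and 7.11, 7.14 and 5.96 in culture, against 9.13, 9.90 and 9.46 after ligation, 8.82, 8.64 and 8.72 after CCl4 and 8.62, 8.15, 7.51, 8.49 and 7.94 in quiescent cells. The ligation arrays were the 3 highest and the culture arrays the 3 lowest. It fell by 1.41 ± 0.29 in culture (2.65-fold lower, adjusted p = 0.00119) and rose 1.35 ± 0.29 after ligation (2.55-fold, adjusted p = 0.00401). Coculture exceeded culture by 1.43 ± 0.36 (adjusted p = 0.0138), a call lost without coculture replicate 2 (1.21) and with all probe sets of the gene averaged (1.02). Slc6a6, the taurine carrier, fell by 1.28 ± 0.18 in coculture (adjusted p = 8.55e-05), by 0.74 in culture (0.00166) and by 0.68 after ligation (0.00771), with means of 7.96, 8.51 and 8.57 against 9.25 ± 0.11 (SD, n = 5) in quiescent cells. With its probe sets averaged, the differences were -0.50, -0.38 and -0.48 and not called. After CCl4 it averaged 8.99 and was not called.

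Slc43a3, a purine nucleobase carrier of a family otherwise known for amino acids, read 10.38 and 10.82 in coculture and 11.07, 10.99 and 11.14 in culture, against 8.39, 8.95 and 9.59 after ligation, 8.66, 8.67 and 8.73 after CCl4 and 10.24, 10.23, 9.30, 9.88 and 9.98 in quiescent cells. All culture arrays lay above and all CCl4 arrays below the quiescent ones. It rose 1.14 ± 0.23 in culture (adjusted p = 0.00126) and fell by 1.24 ± 0.23 after CCl4 (adjusted p = 0.00159) and by 0.95 after ligation (adjusted p = 0.0108), the ligation call being lost without ligation replicate 1 (-0.66). Culture exceeded the injury mean by 2.23 ± 0.23 (4.71-fold, adjusted p = 2.28e-06). Slc7a6, a light chain that exchanges basic for neutral amino acids, rose 1.03 in coculture, 0.94 after ligation and 0.77 after CCl4 (adjusted p = 0.00635, 0.01 and 0.0249). Those calls were lost without coculture replicate 3 (0.88), without ligation replicate 1 (0.66), and without CCl4 replicate 1 (0.68) or 2 (0.77) or quiescent replicate 1 (0.72). The arginine carrier Slc7a1 rose 1.04 after CCl4 (adjusted p = 0.0324), with arrays that overlapped, and the call was lost without any CCl4 array (1.01 to 1.07) or quiescent replicate 1 (0.86), 3 (1.01) or 5 (0.90). Slc38a2, a sodium-coupled neutral amino acid carrier, averaged 10.16 in culture against 10.58 in quiescent cells, and its call (-0.42, adjusted p = 0.049) was lost without any of 12 of the 16 arrays (-0.23 to -0.42).

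Genes of the amino acid response, which ATF4 drives when amino acids run short, stood beside these carriers as a list. Of 15 tested genes 7 were higher and 0 lower in coculture than in culture, where 8.37% of all tested genes were higher and 7.03% lower, and the median difference was 1.08 against 0.01 over all tested genes. Against quiescent cells 5 of the 15 were higher and 1 lower in coculture, and 0 higher and 5 lower in culture, beside 17.8% higher and 20.9% lower of all genes in coculture and 18.5% and 23.5% in culture. Both coculture counts of higher genes include Vldlr, and that against quiescent also Chac1. Their group means reached 5 in coculture alone (6.31 and 6.01), so the filter may favour their rise, and these counts are a description. Psat1 and Phgdh, enzymes of serine synthesis, averaged 8.56 and 8.06 in coculture, against 6.54 and 6.29 in culture. Asns, asparagine synthetase, averaged 9.95 in coculture, 8.82 in culture, 9.51 after ligation and 9.50 after CCl4, against 8.68 in quiescent cells, and differed in all of these but culture. The list's transcription factor genes Atf4 (-0.15), Atf5 (-0.55), Atf3 (-1.12), Ddit3 (-0.08) and Cebpb (0.27) were not called between coculture and culture. Atf5 was lower in coculture than in quiescent cells (-1.58).

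Carriers of zinc, iron, copper and magnesium differed between coculture and culture in 7 of 20 genes, 5 higher and 2 lower, where 15.4% of all tested genes differed (8.37% higher and 7.03% lower). The importers Slc39a10 and Slc11a2 were higher, and the zinc exporter Slc30a1 and the iron exporter Slc40a1 lower, in coculture than in culture. Slc39a10, a zinc importer chosen after its values were seen, read 8.70 and 8.32 in coculture and 7.54, 7.55 and 6.87 in culture, against 7.63 to 7.95 on the 6 injury arrays and 7.86, 7.57, 7.93, 7.56 and 7.54 in quiescent cells. Both coculture arrays were above all others. It exceeded culture by 1.19 ± 0.21 (2.28-fold, adjusted p = 0.00148) and quiescent cells by 0.82 ± 0.19 (adjusted p = 0.00375), the second call lost without coculture replicate 2 (0.63). With only those groups in the fit, the first was not called either (1.19). Slc39a14, which imports zinc and non-transferrin iron, read 4.81 and 4.86 in coculture and 3.98, 3.19 and 3.11 in culture, against 5.75, 5.95 and 6.75 after ligation, 4.87, 5.65 and 6.12 after CCl4 and 4.74, 5.08, 4.65, 6.09 and 4.78 in quiescent cells. Culture lay below every other array, and fell by 1.64 ± 0.36 against quiescent (3.12-fold lower, adjusted p = 0.00224). Its difference between coculture and culture, 1.41, had an adjusted p of 0.048 and was lost without any of 11 of the 16 arrays (1.25 to 1.43).

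Slc30a1, the exporter of zinc at the plasma membrane, read 5.41 and 5.34 in coculture and 7.06, 6.19 and 6.59 in culture, against 5.88, 6.39 and 5.61 after ligation, 5.68, 6.0 and 6.59 after CCl4 and 6.28, 6.74, 6.90, 6.08 and 6.3 in quiescent cells. The coculture arrays were the 2 lowest of all 16. It was lower than culture (log2 difference -1.23 ± 0.33, adjusted p = 0.0195) and fell by 1.08 ± 0.30 against quiescent (adjusted p = 0.0108). Both calls were lost without either coculture array (-1.20 to -1.27 against culture and -1.05 to -1.12 against quiescent), and the first also without culture replicate 1 (-1.01). Averaging the gene's probe sets gave -0.56 and -0.52, neither called. Mt2, a metallothionein that binds zinc, averaged 10.39 in coculture and 9.44 in culture against 9.26 in quiescent cells, and rose 1.13 in coculture against quiescent, while Mt1 was called in no comparison. Slc41a2, a magnesium carrier, was above quiescent in all 4 states. It read 5.47 and 6.03 in coculture, 5.85, 4.99 and 4.98 in culture, 5.86, 7.15 and 6.41 after ligation and 6.43, 5.72 and 5.74 after CCl4, against 4.50, 4.85, 3.65, 4.72 and 3.85 in quiescent cells. No quiescent array reached any other array. As no quiescent array reached the level of 5, its differences from quiescent are given as sizes with no test. They were 2.16 ± 0.35 after ligation (4.47-fold) and 1.65 ± 0.35 after CCl4 (3.14-fold, and 1.76 without CCl4 replicate 3). In coculture the difference was 1.43 (1.15 without coculture replicate 3). In culture it was 0.96, and 0.67 without culture replicate 1, 1.10 without culture replicate 2, 0.79 without quiescent replicate 3 and 0.84 without quiescent replicate 5.

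Among iron genes, Slc11a2, which brings ferrous iron into the cytosol, read 6.75 and 6.16 in coculture and 5.38, 5.26 and 5.17 in culture, against 5.20, 4.91, 5.39, 5.27 and 4.95 in quiescent cells. The coculture arrays lay above both groups. It rose 1.31 ± 0.22 against quiescent (2.49-fold, adjusted p = 0.00036) and 1.19 ± 0.24 against culture (adjusted p = 0.00395), the second call lost without coculture replicate 2 (0.89). Slc40a1, ferroportin, the exporter of iron, read 5.92 and 6.87 in coculture and 7.83, 8.72 and 9.96 in culture, against 8.93, 7.21, 8.67, 6.41 and 8.24 in quiescent cells. Its SD was 1.07 in culture and 1.05 in quiescent cells. It was lower in coculture than in culture (-2.44 ± 0.65, 5.42-fold lower, adjusted p = 0.0196), a call lost without culture replicate 3 (-1.88) or coculture replicate 2 (-1.96) or with only those groups in the fit. Slc48a1, which moves heme into the cytosol, read 7.18 and 7.52 in coculture and 8.19, 8.21 and 8.53 in culture, against 8.49, 8.35, 9.08, 8.76 and 8.80 in quiescent cells. It fell by 1.34 ± 0.20 in coculture against quiescent (adjusted p = 0.000136) and was lower than culture (-0.96, adjusted p = 0.00819), a call lost without coculture replicate 2 (-0.79). Of 12 tested genes of zinc and iron handling outside the SLC family, 2 were higher and 3 lower in coculture than in culture, where 8.37% of all tested genes were higher and 7.03% lower. The transferrin receptor Tfrc averaged 9.18 in coculture and 8.66 in culture against 9.89 in quiescent cells and fell in both (log2 differences -0.71 and -1.23). The ferritin heavy chain gene Fth1 fell in all 4 states, by 0.74 in coculture, 0.47 in culture, 0.30 after ligation and 0.37 after CCl4. In coculture against culture the macrophage list stood at 8.38 to 8.43 against 6.52 to 6.70, with Cd68 at 7.81 and 7.82 against 2.57 to 4.88, and its part in these differences was not tested. Lyz2, the other tested member, was not called between them (0.54, adjusted p = 0.699).

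**Figure D4:**
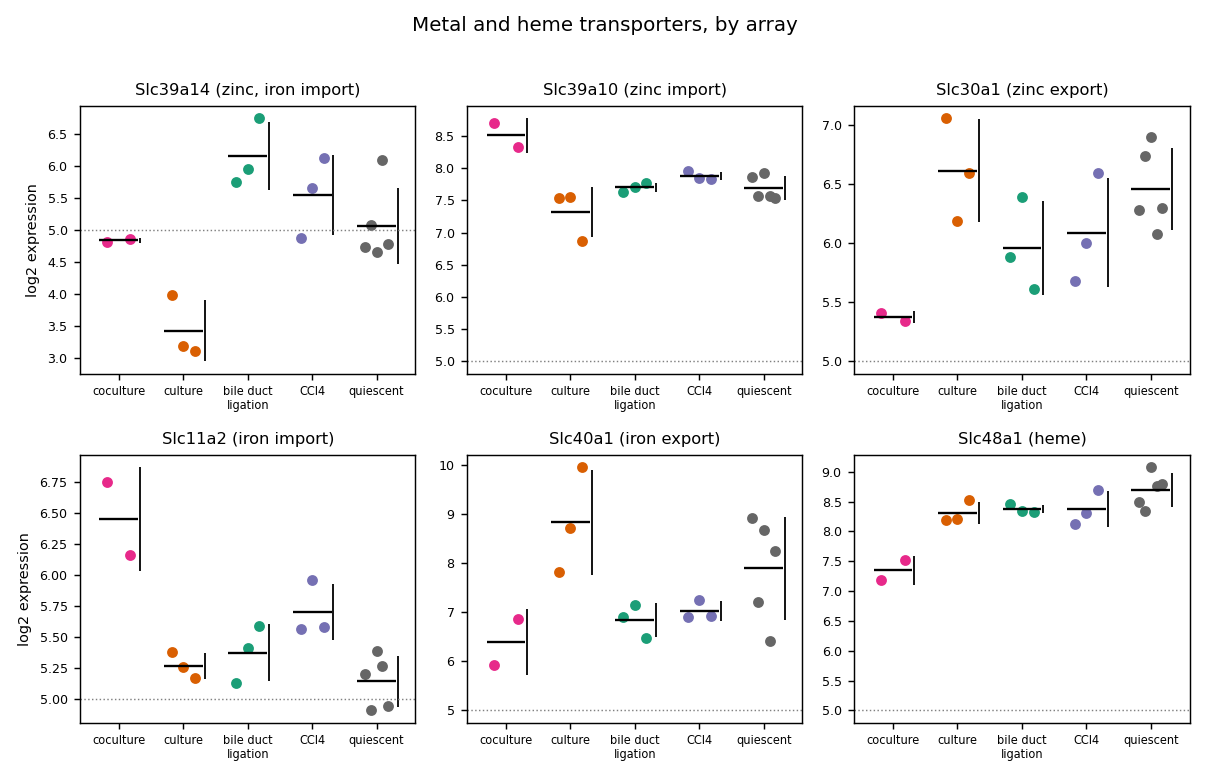
Log2 expression by array for 6 carriers of zinc, iron and heme, one point per array, with group mean (horizontal line) and SD (vertical line) and the level of 5 dotted where it falls in range. The 2 coculture arrays lie above the 3 culture arrays for Slc39a14, Slc39a10 and Slc11a2 and below them for Slc30a1, Slc40a1 and Slc48a1.

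Mitochondrial carriers, the largest class with 23 members, changed by smaller amounts. In culture 11 differed, 4 higher and 7 lower, and 7 differed in coculture, 1 after ligation and 6 after CCl4, at a median size of 0.41 in culture against 0.44 over all tested genes. The shares called were 47.8% in culture, 30.4% in coculture, 4.35% after ligation and 26.1% after CCl4, against 42.1%, 38.7%, 16.9% and 22.0% of all tested genes. The adenine nucleotide translocases, which exchange ADP for ATP, moved apart: Slc25a5 read 11.35 and 11.19 in coculture and 10.85, 10.65 and 10.65 in culture, against 11.68, 11.45, 11.60, 11.79 and 11.51 in quiescent cells. Slc25a5 fell by 0.89 ± 0.09 in culture (adjusted p = 3.43e-06), whereas Slc25a4, at 11.47, 11.38 and 11.61 in culture against 11.07, 11.03, 11.20, 10.88 and 11.25 in quiescent cells, rose 0.41 ± 0.09 (adjusted p = 0.00265). The Slc25a5 probe set may also read near-identical copies of the gene, as its name marks probes shared between sequences. Coculture exceeded culture in Slc25a5 by 0.55 (adjusted p = 0.00369), a call lost without coculture replicate 2 (0.48). That call was also lost without shared probe sets (0.63), with averaged probe sets (0.51) and with only those groups in the fit.

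Slc25a37, mitoferrin, which brings iron into mitochondria, read 7.62 and 6.88 in coculture and 6.03, 5.45 and 5.92 in culture, against 7.24, 7.14 and 7.09 after ligation, 7.61, 7.72 and 7.54 after CCl4 and 7.08, 7.22, 6.26, 7.09 and 7.06 in quiescent cells. Culture lay below every other array. It fell by 1.14 ± 0.22 in culture (2.21-fold lower, adjusted p = 0.000872), and coculture exceeded culture by 1.45 (adjusted p = 0.00276), a call lost without coculture replicate 2 (1.08). After CCl4 it rose 0.68 (adjusted p = 0.0386), a call lost without any CCl4 array (0.64 to 0.72) or without quiescent replicate 3 (0.51) or 5 (0.71). Slc25a39 fell by 0.63 ± 0.10 in culture (adjusted p = 0.000229). Slc25a36, a pyrimidine nucleotide carrier, fell by 0.55 after ligation (adjusted p = 0.0119, lost without ligation replicate 1 at -0.53 or 2 at -0.48) and by 0.45 after CCl4 (adjusted p = 0.0296, lost without CCl4 replicate 1 at -0.34 or 3 at -0.45 or quiescent replicate 2 or 5, both -0.40). Without probe sets shared between sequences the CCl4 difference was -0.03 (adjusted p = 0.949), and with its probe sets averaged -0.28 (adjusted p = 0.276). The mitochondrial phosphate carrier Slc25a3, chosen after its values were seen, spanned 0.24 between its highest and lowest group mean and was called in no comparison.

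Sugar carriers differed one by one. Slc2a10, a facilitative sugar carrier of the glucose transporter family, read 5.03 and 4.97 in coculture and 2.60, 3.34 and 3.30 in culture, against 5.55, 4.69 and 4.64 after ligation, 3.31, 4.22 and 3.63 after CCl4 and 3.06, 3.08, 3.07, 3.88 and 3.71 in quiescent cells. The coculture and ligation arrays were the 5 highest. It reached the level of 5 on 1 coculture and 1 ligation array alone, so its differences are given as sizes with no test. They were 1.64 ± 0.36 (SE) in coculture (3.11-fold) and 1.60 ± 0.32 after ligation (3.03-fold) against quiescent, and 1.92 ± 0.40 in coculture against culture. After CCl4 it averaged 3.72 ± 0.47 (SD, n = 3). Slc45a3 fell by 1.35 after CCl4 (adjusted p = 0.0102) and by 1.16 in culture (adjusted p = 0.0126), lost without CCl4 replicate 1 (-1.15) and without culture replicate 1 (-0.82). Of the carriers left out by name, the glucose carrier Slc2a1 averaged 10.87 in coculture and 10.92 in culture, 10.43 after ligation and 11.07 after CCl4, against 10.20 in quiescent cells, and the lactate carrier Slc16a3 averaged 5.58 in coculture and 2.75 in culture against 1.64 in quiescent cells.

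Of the organic acid and fatty acid carriers 2 were kept, beside Slc16a1 and Slc16a3, which reached the level but were left out by name. Slc16a9, of the monocarboxylate transporter family, read 5.20 and 5.95 in coculture, 5.91, 6.10 and 6.86 in culture, 5.68, 5.85 and 5.86 after ligation and 3.53, 4.57 and 4.82 after CCl4, against 7.56, 7.16, 6.99, 5.37 and 7.0 in quiescent cells. The CCl4 arrays were the 3 lowest of the 16. It fell by 2.51 ± 0.42 after CCl4 (5.69-fold lower, adjusted p = 0.000659). Slc27a4, a fatty acid transport protein, averaged 5.76 ± 0.25 in coculture and 5.76 ± 0.44 in culture against 6.56 ± 0.25 in quiescent cells (SD). It fell by 0.80 in each, and the coculture call (adjusted p = 0.0166) was lost without coculture replicate 3 (-0.62), while the culture call (adjusted p = 0.00701) was lost under no alternative.

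Among ion carriers, Slc4a4 reached the level of 5 on injury arrays alone, so its injury differences too are given with no test. Slc4a4, a sodium bicarbonate cotransporter, read 4.95, 5.16 and 5.43 after ligation and 5.57, 4.83 and 6.37 after CCl4, against 2.78, 2.83, 2.67, 2.61 and 2.80 in quiescent cells. The 6 injury arrays read 4.83 or higher, and coculture (2.67 and 2.85) and culture (2.7, 2.80 and 2.30) read like quiescent cells. The log2 difference from quiescent was 2.44 ± 0.30 after ligation (5.44-fold) and 2.85 ± 0.30 after CCl4 (7.22-fold), and 2.46 after CCl4 without its replicate 3. The same arrays carried Alb at 7.34 to 10.79, against 1.84 to 3.75 in quiescent cells, and Krt18 at 6.96 to 9.96, against 1.79 to 2.57, and CCl4 replicate 3 was highest in Alb, Krt18 and Slc4a4; the part of these markers in the result was not tested. Slc4a2, a chloride/bicarbonate exchanger chosen after its values were seen, rose 0.80 after ligation (adjusted p = 0.0364), a call lost without any ligation array (0.69 to 0.90) or quiescent replicate 1 (0.81), 2 (0.83) or 3 (0.67). Slc12a4, a potassium chloride cotransporter, fell by 1.06 in coculture (adjusted p = 0.00388, lost without coculture replicate 3 at -0.78), and its sodium-coupled relative Slc12a2 was called in no comparison. Slc9a8, a Golgi sodium/proton exchanger, averaged 3.39 in coculture and 3.37 in culture against 4.55 in quiescent cells. Slc9a8 reached the level of 5 on 1 ligation and 1 quiescent array alone, so its differences are given as sizes with no test. They were -1.18 in culture and -1.16 in coculture, both against quiescent. The coculture difference was -1.08 to -1.23 without either coculture array and -1.06 without quiescent replicate 5.

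Phosphate carriers gave one change. Slc20a2, a sodium-coupled phosphate importer, read 9.04 and 8.44 in coculture and 7.75, 7.17 and 7.12 in culture, against 8.42, 8.48 and 8.88 after ligation, 9.05, 8.72 and 8.98 after CCl4 and 7.58, 7.31, 7.53, 8.21 and 7.94 in quiescent cells. All coculture and injury arrays lay above all culture and quiescent arrays. It rose 1.20 ± 0.22 after CCl4 (2.30-fold, adjusted p = 0.00127), 0.88 ± 0.22 after ligation (adjusted p = 0.0114) and 1.03 ± 0.25 in coculture (adjusted p = 0.00493), and coculture exceeded culture by 1.39 (adjusted p = 0.00322). The ligation call was lost without ligation replicate 3 (0.74) or with the gene's probe sets averaged (0.63), and both coculture calls without coculture replicate 2 (0.73 against quiescent and 1.09 against culture). Its relative Slc20a1 was called in none of the 7 comparisons, with group means from 9.20 to 10.01. Of the sodium pump's subunits, which keep up the gradient these carriers use, 4 were tested: Atp1b1, a beta subunit, averaged 7.13 in coculture and 3.82 in culture, 6.01 after ligation and 7.63 after CCl4, against 1.64 in quiescent cells. In quiescent cells Atp1b1 lay near the unexpressed level, so its rise in each state is given as a size with no test. The others went other ways. Fxyd5, a regulatory subunit, fell by 1.64 in culture, and the beta subunit Atp1b3 fell by 0.36 in culture and after CCl4. Fxyd1 averaged 5.69 in culture, 3.33 in coculture, 3.4 after ligation and 3.5 after CCl4, against 3.74 in quiescent cells. Its group mean reached the level of the filter in culture alone, so its differences are given as sizes with no test. They were 1.95 in culture against quiescent and -2.36 in coculture against culture.

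**Figure D5:**
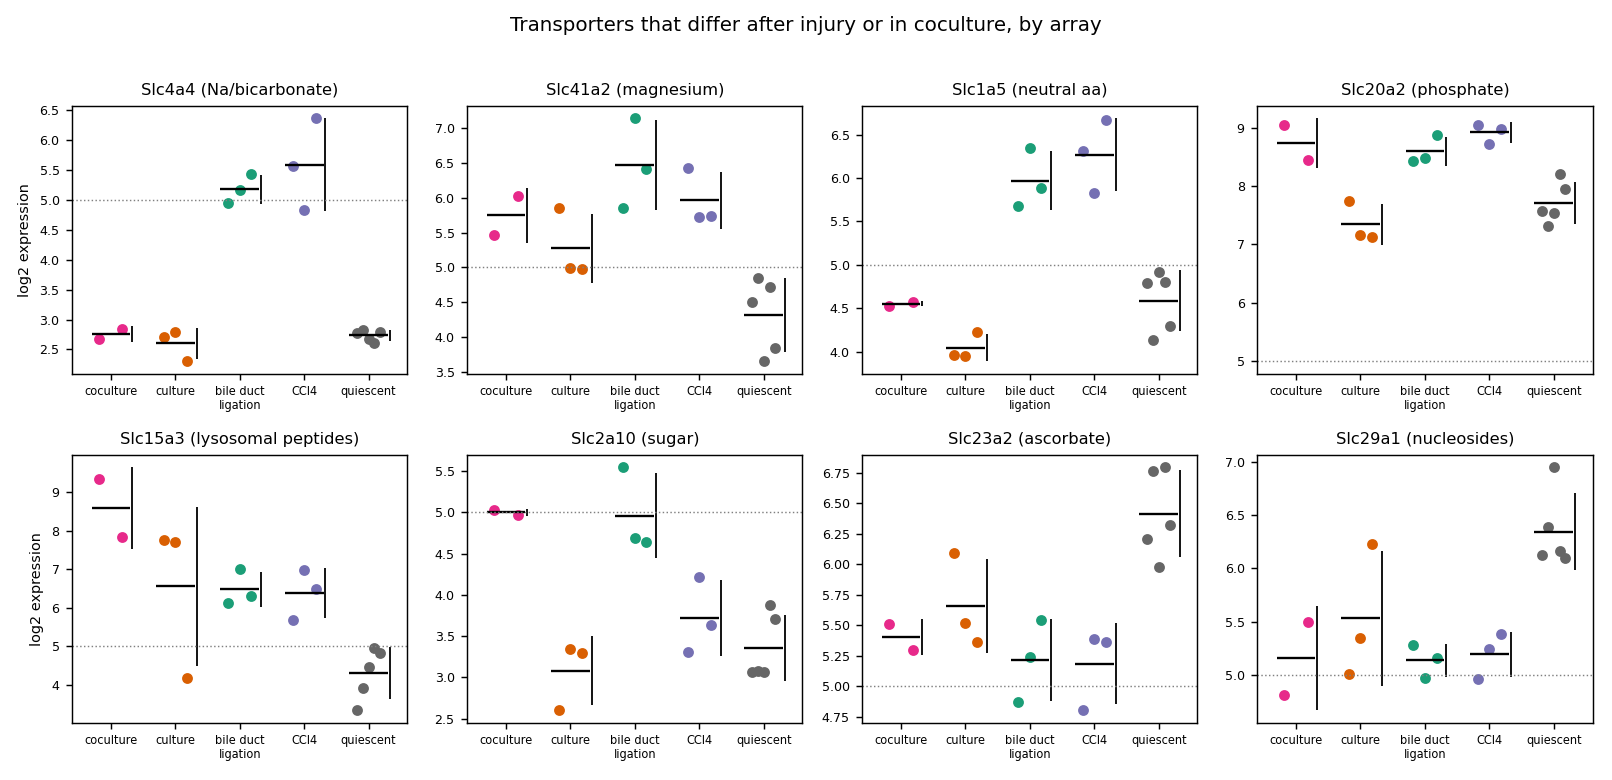
Log2 expression by array for 8 carriers, one point per array, with group mean (horizontal line) and SD (vertical line) and the level of 5 dotted where it falls in range. Slc4a4 and Slc1a5 are high on the 6 injury arrays, Slc20a2 there and in coculture, and Slc23a2 and Slc29a1 lie lower in most activated arrays than in quiescent cells.

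Vitamin and nucleoside carriers included the 2 genes that were called lower than quiescent in all 4 states, Slc23a2 and Slc29a1, as were 1.52% of all tested genes. Slc23a2, which takes up ascorbate, the cofactor of collagen hydroxylases, read 5.51 and 5.30 in coculture, 6.09, 5.52 and 5.36 in culture, 4.87, 5.24 and 5.54 after ligation and 4.80, 5.39 and 5.36 after CCl4, against 6.21, 6.77, 5.98, 6.80 and 6.32 in quiescent cells. Of the 11 activated arrays, culture replicate 1 alone reached the quiescent range. It fell by 1.20 ± 0.25 after ligation (adjusted p = 0.00336) and 1.23 ± 0.25 after CCl4 (adjusted p = 0.00243). It fell by 1.01 in coculture (adjusted p = 0.0108, lost without coculture replicate 3 at -0.91) and by 0.76 in culture (adjusted p = 0.0217, lost without culture replicate 2 at -0.69 or 3 at -0.61). Slc29a1, an equilibrative nucleoside carrier, read 4.81 and 5.50 in coculture, 5.01, 5.35 and 6.23 in culture, 5.28, 4.97 and 5.16 after ligation and 4.96, 5.24 and 5.38 after CCl4, against 6.12, 6.39, 6.95, 6.16 and 6.10 in quiescent cells. Culture replicate 3 lay among the quiescent arrays and the other activated arrays below them. It fell by 1.20 ± 0.27 after ligation (adjusted p = 0.00679), 1.15 after CCl4 (adjusted p = 0.00783), 1.19 in coculture (adjusted p = 0.00799) and 0.81 in culture (adjusted p = 0.0265). The last 3 calls were lost without CCl4 replicate 1 (-1.03), without coculture replicate 2 (-0.84), and without culture replicate 1 (-0.55) or 2 (-0.72) or quiescent replicate 3 (-0.66).

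Both folate carriers were low in culture. Slc46a1, the proton-coupled folate carrier, averaged 6.34 ± 0.19 in coculture, 5.30 ± 0.19 in culture, 5.98 ± 0.22 after ligation and 5.24 ± 0.30 after CCl4, against 6.95 ± 0.56 in quiescent cells (SD). It fell by 1.65 ± 0.27 in culture (3.13-fold lower, adjusted p = 0.00021) and by 1.71 ± 0.27 after CCl4 (3.26-fold lower, adjusted p = 0.000404). Slc19a1, the reduced folate carrier, read 4.71, 4.75 and 4.66 in culture against 5.94, 5.41, 6.31, 6.38 and 5.82 in quiescent cells. It fell by 1.26 ± 0.27 (adjusted p = 0.00159), and none of these 3 calls was lost under any alternative. Slc44a2, a choline transporter-like protein, read 10.28 and 10.32 in coculture and 10.42, 10.36 and 10.27 in culture, against 8.55, 9.0, 9.25, 8.61 and 9.52 in quiescent cells. It rose 1.32 ± 0.23 in coculture (2.49-fold, adjusted p = 0.000496) and 1.36 ± 0.20 in culture (2.58-fold, adjusted p = 0.000103). Its relative Slc44a1, chosen after its values were seen, averaged 7.48 in coculture, 7.60 in culture and 7.56 after CCl4 against 8.41 in quiescent cells, and each of these calls was lost without at least 4 of the arrays taken singly.

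Slc15a3, a lysosomal carrier of histidine and short peptides, was the other gene above quiescent in all 4 states, as were 2.19% of all tested genes. For Slc15a3 and Slc41a2, no quiescent array reached the level of 5, so their differences from quiescent are given as sizes with no test. The 2.19% also counts any such genes. Slc15a3 read 9.34 and 7.83 in coculture, 7.77, 7.72 and 4.18 in culture, 6.12, 7.0 and 6.32 after ligation and 5.68, 6.98 and 6.48 after CCl4, against 3.34, 3.93, 4.47, 4.96 and 4.84 in quiescent cells. Culture replicate 3 lay among the quiescent arrays, and the other 10 activated arrays lay above them. The log2 difference from quiescent was 4.28 ± 0.77 in coculture (19.4-fold), 2.25 in culture, 2.17 after ligation and 2.08 after CCl4. In culture it was 1.65 without culture replicate 1 and 1.67 without replicate 2. With any ligation array left out it was 1.91 to 2.35 after ligation. With any CCl4 array left out it was 1.78 to 2.43 after CCl4. Without quiescent replicate 1, 2 or 3 it was 1.93 to 2.21 after ligation and 1.84 to 2.12 after CCl4. On these arrays Cd68, a lysosomal protein abundant in macrophages, read 7.81 and 7.82 in coculture and 3.77, 4.88 and 2.57 in culture, against 6.06 to 7.77 in quiescent cells, and Adgre1 stayed near the unexpressed level. Lyz2 read 5.50 and 5.47 in coculture, 4.79, 4.59 and 5.45 in culture, 6.42, 7.22 and 4.09 after ligation and 6.38, 3.71 and 6.3 after CCl4, against 1.75 to 2.36 in quiescent cells, and was, like Slc15a3, higher in all 4 states.

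Carriers of nucleotide sugars feed glycosylation in the Golgi. Slc35a1, which supplies CMP-sialic acid, read 6.94, 6.86 and 6.98 after ligation and 6.69, 6.76 and 6.89 after CCl4, against 7.38, 7.38, 7.32, 7.37 and 7.39 in quiescent cells. The injury arrays all lay below the quiescent ones. It fell by 0.44 after ligation (adjusted p = 0.0235, lost without ligation replicate 1 at -0.45 or 2 at -0.41) and by 0.59 ± 0.12 after CCl4 (adjusted p = 0.00379), and neither was called with its probe sets averaged (-0.31 and -0.19). A second probe set above the level was available for 40 of the 103 genes, and 9 of their 84 called differences had the opposite sign in another probe set, all in Slc31a1, Slc35a1, Slc35a2 and Slc38a10, so the direction of those 4 genes depends on the probe set. Slc35a2, the UDP-galactose carrier, averaged 7.77 in culture against 8.56 after ligation and 8.10 after CCl4.

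Organic ion carriers of the SLC10 and SLC22 families had 3 expressed members, of which 1 fell in culture, Slc10a3, by 0.83 ± 0.21 (adjusted p = 0.00567). The related Slco family, which lies outside the SLC symbol pattern, had 3 tested genes of 15, and 2 of them were higher in coculture, after ligation and after CCl4, where 17.8%, 8.03% and 9.51% of all tested genes were higher. Slco4a1 averaged 11.47 in coculture and 6.38 in culture, 7.83 after ligation and 9.28 after CCl4, against 5.00 in quiescent cells, and Slco2a1, the prostaglandin carrier, averaged 7.45, 3.83, 6.12 and 7.27 in those groups against 2.26. In quiescent cells Slco2a1 lay near the unexpressed level, so the filter favours its rise. Of 12 tested ATP-driven transporters of the ABC class, 1 rose and 4 fell in coculture and 1 rose and 5 fell in culture, both against quiescent cells, beside 38.7% and 42.1% of all tested genes called in these comparisons. Abca8a averaged 1.92 in coculture, 2.27 in culture, 2.33 after ligation and 1.89 after CCl4 against 5.47 in quiescent cells. Outside quiescent cells it averaged near the unexpressed level, so its differences are given as sizes with no test. Of 4 tested surface partners of the monocarboxylate and amino acid carriers, 1 was higher and 0 lower in coculture, and 3 higher and 1 lower in culture. These stood beside the same 38.7% and 42.1% of all tested genes called. Bsg, which accompanies the lactate carriers, rose 0.84 in coculture and 0.54 in culture, with means of 10.77 and 10.47 against 9.93 in quiescent cells. Cd44 fell by 1.46 in culture and was not called in coculture.

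The remaining carriers were not called or lay below the level. Of the 103 genes, 22 were called in none of the 7 comparisons, where 27.3% of all tested genes were called in none, among them the zinc carriers Slc30a5, Slc30a6, Slc30a7 and Slc30a9 and the phosphate carrier Slc20a1. Slc30a5, chosen after its values were seen, had the narrowest span of group means, 0.08, from 8.06 in coculture and 8.13 in culture to 8.14 in quiescent cells. The F test across the 5 groups called 71 of the 103, where 63.0% of all genes were called. Culture held the highest group mean for 34 genes and the lowest for 27, and CCl4 the highest for 7 and the lowest for 24. Below the level, Slc8a1, the sodium/calcium exchanger, read 0.75 to 1.99 and Slc39a8, a zinc importer, 2.84 to 4.90 over the 16 arrays, and neither was tested.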

How the data were processed

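RNA of 16 hepatic stellate cell samples was measured on 1 Affymetrix array each. The authors deposited log2 expression values per probe set, and the submitters' processing notes name GCRMA, which models background from probe sequence, normalises arrays by quantiles and summarises probes. The GCRMA version and its options are not stated in the labels or the file. The table held 45101 probe sets and 0 missing values, and the number of arrays limits the precision.

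Gene names came from the platform annotation. Probe sets with several symbols (932), with none, or of controls (64) were left out. For each of 18193 genes the probe set of highest mean was taken, and 7823 genes reaching log2 5 on 2 or more arrays were tested. With limma 3.58.1 (R 4.3.3), lmFit and eBayes (trend on) were run on a model of 5 group means over the 16 arrays, two-sided, with Benjamini-Hochberg adjustment over all tested genes. Changes are log2 differences with standard errors (SE) from this fit. In simulated data of this design the fit recovered 50 to 73% of genes changed by a log2 difference of 1 and 92 to 96% of those changed by 2, over the 7 comparisons and 7823 genes.

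The members, transport classes, marker and pathway lists were chosen with earlier results of these data known. Named genes were, per comparison, the 6 largest increases and 6 largest decreases among called members whose arrays did not overlap, per class the 3 with the smallest p in the F test and the 2 with the highest mean, and a fixed set. Slc44a1, Slc39a10, Slc4a2, Slc17a5, Slc25a3 and Slc30a5, and genes outside the SLC pattern, were chosen after their values were seen. Taken over all groups, same-numbered arrays did not deviate together (26 pairs, 7 with r over 0.1, median r -0.006), so no block was used. Culture and coculture had r = 0.309 for replicate 2 and 0.537 for replicate 3, the highest of the 26 pairs. With 2 coculture arrays the deviations mirror each other, so these values cannot settle whether the 2 groups were paired. Alternatives were other filters, averaged or unshared probe sets, centring, no trend, array weights, fits of only the groups compared, a replicate block and leaving out each array. Promoter windows are those of RefSeq.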

Additional observations from a re-analysis of the deposited data

Results flagged for a closer look

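Among the 61 named genes, 5 had 1 quiescent array far from the other 4, and chance alone sets apart about 1 in 20 such groups. Slc16a9 read 5.37 in quiescent replicate 4, against 6.99 to 7.56 in the others, and Slc31a2, a copper carrier, read 5.27 in the same array, against 6.3 to 6.43. Slc3a2 read 10.67 in replicate 4, against 9.38 to 9.67. In quiescent replicate 3 Slc25a37 read 6.26, against 7.06 to 7.22, and Slc4a2 read 6.43, against 7.0 to 7.19.

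The effect of culture was opposite to that of both injuries for Slc9a9 and Slc43a3. For Slc9a9 the injury and quiescent arrays all read below 5, so its injury effect lies near background. Culture minus the mean of ligation and CCl4 was 4.70 for Slc9a9, given with no test because it reached the level of 5 in culture alone, and 2.23 for Slc43a3 (adjusted p = 2.28e-06 in the limma fit), and every culture array lay above every injury array in both genes.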

How the results depend on the processing

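The counts of carriers called changed most with the coculture arrays. With 1 array left out in turn, the count was 35 to 52 in culture against quiescent, 18 to 43 in coculture against quiescent, 7 to 25 in coculture against culture, 10 to 25 after ligation, 14 to 28 after CCl4, 0 to 0 between the injuries, 35 to 53 in culture against the injury mean and 56 to 72 in the F test. Without coculture replicate 2 coculture differed from quiescent in 22 and from culture in 7, and without replicate 3 in 18 and 14. Without culture replicate 3 coculture differed from culture in 15. Ligation without its replicate 1 gave 10, and CCl4 gave 14, 15 and 17 without its replicates 1, 2 and 3 and 18 without quiescent replicate 1. With the level at log2 7, fewer genes were tested and the counts were 32 in culture, 23 in coculture, 12 in coculture against culture, 11 after ligation and 44 in the F test. With only the groups compared in the fit, 25 in coculture, 10 in coculture against culture and 17 after CCl4 were called. Averaged probe sets gave 14 in coculture against culture, 12 after ligation and 15 after CCl4, no filter gave 17 after CCl4, and array weights gave 30 after ligation and 2 between the injuries. The cause of these shifts was not tested beyond the fewer genes or arrays used. The sign turned for Slc25a36 in coculture against quiescent, 1.00 without probe sets shared between sequences against -0.21, and for Slc35a1, 0.06 with averaged probe sets against -0.42. A fit with the replicate block called 34 carriers in culture, 27 in coculture, 26 in coculture against culture, 17 after ligation, 19 after CCl4, 0 between the injuries and 50 in culture against the injury mean. By the correlations given above, the replicate numbers do not pair the arrays over all groups, and a pairing of culture with coculture was not settled. Of 160 called differences of named genes, 85 were lost with at least 1 array left out, so calls near the threshold rest on single arrays. Signals below log2 5 lie near background, which limits folds there.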
